A study of Mus musculus with 2 samples.

Results

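Genes of amino acid synthesis were followed here by name, 8 in all. They encode enzymes that make serine, proline and asparagine, or that pass amino groups to pyruvate and oxaloacetate. They were picked by gene symbol, with earlier results of these data known, and all 8 of the 8 symbols were found among the 16803 genes of the deposited RNA-seq table. Phgdh, Psat1 and Psph catalyze the successive steps of serine synthesis. Aldh18a1 and Pycr1 act at the start and the end of proline synthesis, and Asns makes asparagine. Gpt2 and Got1 are aminotransferases that exchange amino groups between glutamate and alanine or aspartate.

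The table compared 2 libraries of NE4C cells, an established mouse neural stem cell line derived as a clone from the embryonic brain vesicles of mice without functional p53. The control library came from cells in normal culture, and the other from cells given homocysteine thiolactone (HTL), the reactive cyclic form of homocysteine that attaches to lysine side chains of proteins. Both cultures were grown in Eagle MEM on plates coated with poly-L-lysine, in a medium for this line that also carried serum, a stable glutamine source and a mix of nonessential amino acids. That mix holds serine, proline, asparagine and alanine. The dose and duration of HTL for these libraries were not given in the sources used here. There was 1 library per condition. The differences therefore carry no replicate check, and every interval and p-value covers counting error between these 2 libraries only.

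Serine is drawn from the glycolytic intermediate 3-phosphoglycerate by oxidation, amination and removal of phosphate, and it feeds protein, lipid, glycine and one-carbon synthesis. Proline is built from glutamate in the mitochondrion, and asparagine is built from aspartate in the cytosol with glutamine as the nitrogen donor. Genes of all these routes are known targets of ATF4, a transcription factor whose translation increases when eIF2alpha is phosphorylated. ATF4 binds, with a C/EBP partner, a composite DNA element whose core is written TGATGNAA, and the copy of that core in the Asns promoter is the best studied of them.

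The promoters of the 8 genes were searched for that core on both strands, over the 300 bases that run from 250 bases before the transcript start to 50 bases after it (RefSeq, GRCm38.p6). All 8 genes had an entry, with 9 promoters because Psat1 has 2 starts. TGATGNAA was found in 3 of the 8 genes, against 4.51% of the 27025 genes and 3.97% of the 32851 promoters in the same table. The stricter form TGATGCAA, which is a subset of those matches, was found in 2 of the 8 genes against 1.03% of all genes. The 3 promoters are shown because they hold the ATF4 core near the start of the asparagine synthetase, a proline gene and an aminotransferase. No serine gene held it. Each window is written on the gene's strand with 30 bases on either side of the match, and the capitals mark the matched letters.
Asns: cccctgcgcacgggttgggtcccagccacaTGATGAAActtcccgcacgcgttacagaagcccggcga
Pycr1: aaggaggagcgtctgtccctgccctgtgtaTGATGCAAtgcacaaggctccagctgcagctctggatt
Got1: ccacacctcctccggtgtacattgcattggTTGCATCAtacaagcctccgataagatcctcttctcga
The Asns window lies at chr6:7693195-7693262 on the minus strand, and its match begins 23 bases before the start. The Pycr1 window lies at chr11:120643814-120643881 on the minus strand, with the match 103 bases before the start. In Got1, at chr19:43524670-43524737 on the minus strand, the match begins 102 bases before the start and reads TGATGCAA on the opposite strand. The other 5 genes held no TGATGNAA in this window, which says only that these letters are not in these bases. A match is a description of sequence and was not measured as a bound site here.

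A further pair of motifs was searched in the same windows. The cyclic AMP response element TGACGTCA was found in 0 of the 8 genes, against 2.03% of all genes. The E-box CACGTG, a core read by Myc and by USF factors, was found in 1 of the 8 genes against 8.09% of all genes. That gene was Aldh18a1, and its window is shown because it held the only E-box among the 8 genes. Counts of 0 and 1 in 8 genes are near these shares, and a link between the E-box and the ratio of Aldh18a1 was not tested.
Aldh18a1: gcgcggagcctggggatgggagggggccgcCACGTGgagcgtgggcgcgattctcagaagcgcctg
The window lies at chr19:40588487-40588552 on the minus strand, with the E-box 59 bases before the start.

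The control library held 10350668 estimated reads and the HTL library 9102073, and a floor of 3 reads corresponded to 0.29 and 0.33 CPM (reads scaled to a common library total). Levels between genes are compared below as FPKM, which divides by transcript length, and differences between libraries as the log2 ratio of HTL to control CPM. A gene was called when its Benjamini-Hochberg adjusted p from a two-sided exact binomial test was at most 0.001 and its ratio reached 2-fold (log2 of 1) in either direction, the cutoffs that the study used. Of 13442 genes with enough reads, 2.81% were called higher and 7.98% lower, and by the adjusted p alone 14.5% were higher and 24.1% lower. The median gene had a log2 ratio of -0.14, so a ratio of 0 on this scale lies above the middle of the table. Checked against the label, the neural stem cell genes Nes and Msi1 were present with 1617 and 617 control reads. Pax6 and Sox1 had only 69 and 48, and Fabp7, a radial glia gene, had 2. The pluripotency gene Pou5f1 had 25077 control reads, and only 0.149% of tested genes had more. Nanog, another pluripotency gene, had 500 reads in the control and 275 in the HTL library. Pluripotency markers summed to 2471 CPM in the control and 2839 CPM in the HTL library, so the markers match the label only in part. The neural stem cell list summed to 512 CPM in the control and 409 CPM in the HTL library, with Sox2, Vim and Sox1 called lower and Notch1 called higher among its 9 genes (the Vim call was lost under the other scalings, those of Vim, Sox1 and Notch1 with FPKM plus 1, and that of Sox1 with an assumed coefficient of variation of 0.1). Astrocyte markers summed to 2.22 and 6.15 CPM (Gfap at 2 and 0 reads, and Aldh1l1, which was called higher, at 21 and 56), microglia and blood markers to 1.84 and 1.76 CPM, neuron markers to 55.6 and 60.2 CPM (Dcx called lower at 88 and 29 reads, Tubb3 not called at 296 and 396) and oligodendrocyte markers to 23.1 and 23.8 CPM. The Dcx and Aldh1l1 calls were lost with FPKM plus 1, that of Aldh1l1 also with an assumed variation of 0.1, and that of Vim also relative to genes of similar length. With an assumed variation of 0.2, every marker call named here was lost, that of Sox2 included. The part of these shifts in the results below was not tested.

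In the serine pathway, all 3 enzymes had more reads after HTL, and only the last step passed the 2-fold cutoff. Phgdh, the dehydrogenase that commits 3-phosphoglycerate to serine, had 4772 reads in the control and 7207 in the HTL library. These are 461 and 792 CPM, a log2 ratio of 0.78 with a 95% interval from 0.73 to 0.83, and the whole interval lies below the 2-fold cutoff. The adjusted p was 4.79e-187 in the exact binomial test, so Phgdh passed the p-value cutoff but was not called. In bulk RNA, fewer cells of a type and less RNA per cell cannot be told apart, and the same holds for more of either. A near-identical copy, Gm6756, held 4 and 1 reads, and adding them left the Phgdh log2 ratio at 0.78.

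Psat1, the aminotransferase that takes nitrogen from glutamate for serine, was the most abundant of the 8 genes in both libraries. It had 7320 control reads and 9526 HTL reads, or 325.4 and 480.5 FPKM. Its log2 ratio was 0.57 (95% interval 0.52 to 0.61), with an adjusted p of 8.01e-140 in the exact binomial test, and it was not called. Psph, the phosphatase that releases free serine, was the least abundant of the 3 genes, with 573 reads in the control and 1237 in the HTL library. It rose 2.45-fold (log2 1.29, 95% interval 1.15 to 1.44, adjusted p = 1.22e-74 in the exact binomial test) and was called higher. The level of Psph went from 35.85 to 87.83 FPKM, so it remained below Psat1 and Phgdh.

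The ratios of the 3 serine genes differed between these 2 libraries beyond counting error, although both differences below lost their call with an assumed coefficient of variation of 0.2. Psph gained on Psat1, with a difference between their log2 ratios of 0.73 (Psat1 minus Psph was -0.73, 95% interval -0.88 to -0.58, adjusted p = 1.33e-21 over 9 pairs by Fisher's exact test). The FPKM of Psat1 was 9.08 times that of Psph in the control and 5.47 times in the HTL library. Phgdh gained on Psat1 by a smaller amount, 0.21 on the log2 scale (95% interval 0.15 to 0.28, adjusted p = 1.33e-09 in Fisher's exact test). These comparisons are made within each library, so the scaling between libraries cancels in them.

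In proline synthesis, the first and the last enzyme both had more reads after HTL, and only the first was called. Aldh18a1, the bifunctional synthase that activates and reduces glutamate, had 1215 reads in the control and 2708 in the HTL library. It rose 2.53-fold, the largest ratio of the 8 genes (log2 1.34, 95% interval 1.24 to 1.44, adjusted p = 8.61e-172 in the exact binomial test). Among all tested genes, 2.35% had a higher ratio. Its level went from 32.91 to 83.32 FPKM, close to that of Psph in both libraries.

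Pycr1, a mitochondrial reductase that forms proline in the last step, was the scarcest of the 8 genes, with 248 reads in the control and 326 in the HTL library. Its log2 ratio was 0.58, with the widest interval of the 8 genes (0.34 to 0.82), an adjusted p of 6.06e-06 in the exact binomial test, and no call. The estimated reads of Pycr1 were not whole (247.55 and 326.02), which is how reads shared between genes appear in such a table. Those of Phgdh were not whole either (4772.18 and 7206.81). Aldh18a1 exceeded Pycr1 in log2 ratio by 0.76 (95% interval 0.50 to 1.02, adjusted p = 1.35e-08 in Fisher's exact test), and the ratio of their FPKM values went from 4.03 to 6.82.

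Pycrl, a cytosolic enzyme that catalyzes the same reaction as Pycr1, held 570 reads in the control and 365 in the HTL library. Its log2 ratio was -0.46, and it was not called. Pycr1 gained on Pycrl by 1.04 on the log2 scale (95% interval 0.73 to 1.35, adjusted p = 4.18e-11 in Fisher's exact test). Even so, the FPKM of Pycr1 was 0.199 times that of Pycrl in the control and 0.409 times in the HTL library, so Pycrl was the more abundant of the pair in both.

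Of the enzymes of proline breakdown compared here, 1 was called lower. Prodh, which oxidizes proline in the mitochondrion, had 98 reads in the control and 39 in the HTL library and was called lower (log2 -1.13, adjusted p = 4.78e-05 in the exact binomial test). That call was lost under median of ratios scaling, with FPKM plus 1 and with an assumed coefficient of variation of 0.1 or more. Aldh4a1, which completes the return to glutamate, had 123 and 113 reads (log2 0.06). The difference between Pycr1 and Prodh, which catalyze opposite reactions, was 1.72 on the log2 scale (95% interval 1.12 to 2.35, adjusted p = 2.94e-09 in Fisher's exact test). For Aldh18a1 and Aldh4a1 it was 1.28 (95% interval 0.88 to 1.67, adjusted p = 1.61e-10).

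**Figure D1:**
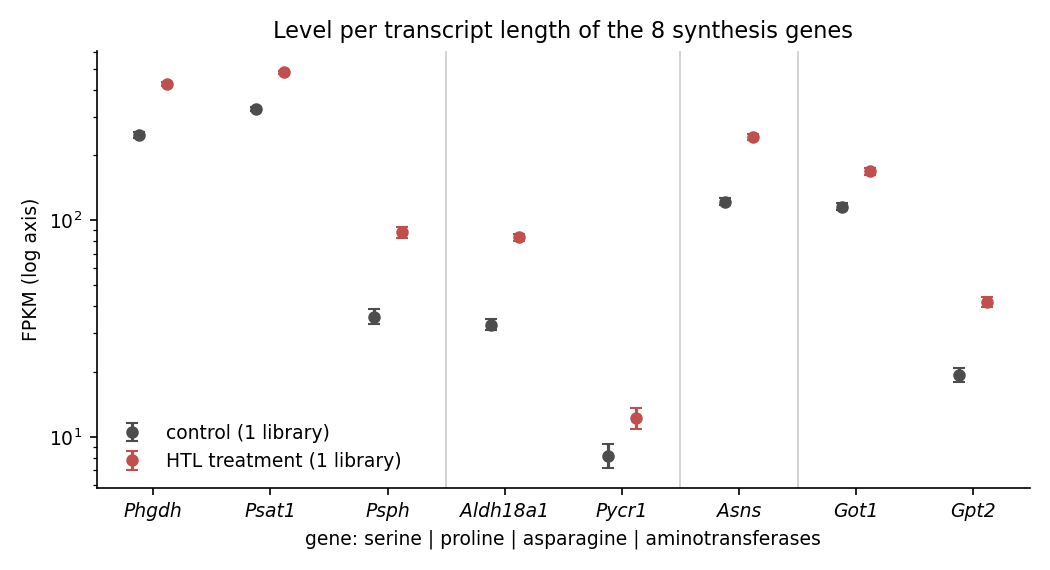
Level of each of the 8 genes in the control and HTL libraries, as FPKM on a log axis with 95% counting intervals and 1 library per condition. Each gene was higher in the HTL library, and the order from Psat1 (325.4 and 480.5 FPKM) down to Pycr1 (8.17 and 12.21 FPKM) was the same in both.

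Asns, the synthetase that forms asparagine from aspartate with the amide nitrogen of glutamine, had 2416 reads in the control and 4235 in the HTL library. This is a 1.99-fold ratio, a log2 ratio of 0.995 that lies just under the 2-fold cutoff, with a 95% interval from 0.92 to 1.07 that spans it. The adjusted p was 2.81e-166 in the exact binomial test, and the missing call rests on the fold cutoff alone. With TMM scaling in place of the library totals the log2 ratio was 1.13, and Asns passed. Asrgl1, an asparaginase that turns asparagine back into aspartate, had 282 and 268 reads. Asns gained on Asrgl1 by 0.88 on the log2 scale (95% interval 0.63 to 1.14, adjusted p = 2.62e-11 in Fisher's exact test), and its FPKM went from 10.1 to 18.7 times that of Asrgl1.

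The aminotransferases that connect glutamate with alanine and aspartate were split by the cutoff. Gpt2, the mitochondrial alanine aminotransferase, had 724 reads in the control and 1386 in the HTL library and rose 2.18-fold (log2 1.12, 95% interval 0.99 to 1.25, adjusted p = 1.32e-66 in the exact binomial test). Its cytosolic counterpart Gpt had 39 and 32 reads, so Gpt2 made up 90.2% of the summed FPKM of the pair in the control and 95.6% in the HTL library. The difference between Gpt2 and Gpt was 1.22 on the log2 scale, with a wide 95% interval from 0.50 to 1.96 because Gpt had few reads (adjusted p = 0.00055 in Fisher's exact test).

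Got1, the cytosolic aspartate aminotransferase of the malate-aspartate shuttle, had 2465 reads in the control and 3162 in the HTL library. Its log2 ratio of 0.54 (95% interval 0.47 to 0.62, adjusted p = 7.71e-44 in the exact binomial test) was the smallest of the 8 genes and was not called. The mitochondrial counterpart Got2 was more abundant, with 5922 and 6077 reads, and had a log2 ratio of 0.22. Got1 gained on Got2 by 0.32 (95% interval 0.23 to 0.41, adjusted p = 2.62e-11 in Fisher's exact test), and its share of the summed FPKM of both went from 32.1% to 37.2%.

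**Figure D2:**
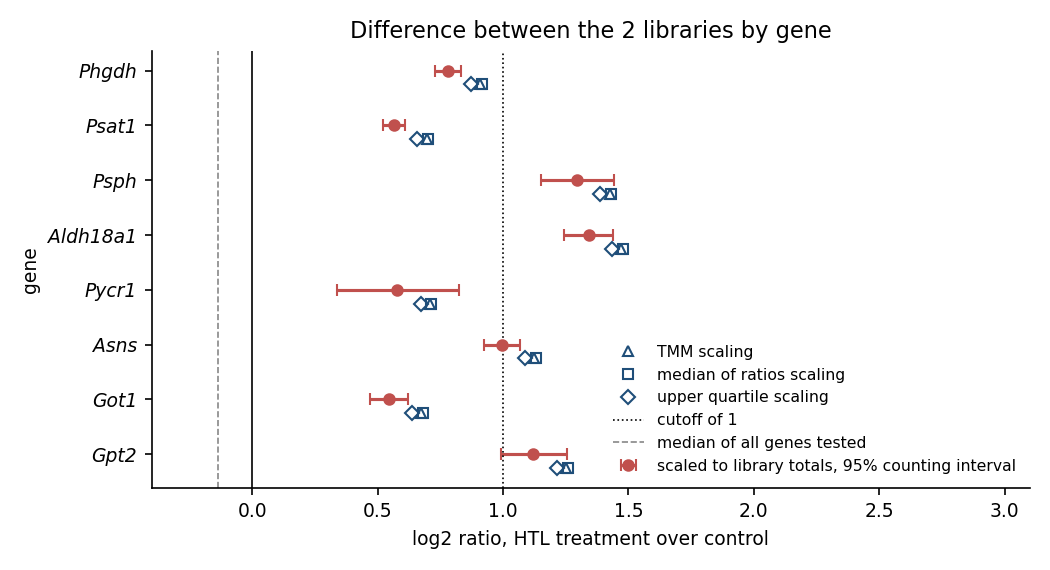
Log2 ratio of HTL to control CPM for each of the 8 genes with 95% exact intervals (red), beside the same ratio under 3 other library scalings (open symbols), the 2-fold cutoff (dotted) and the median of all tested genes (dashed). Aldh18a1 (1.34), Psph (1.29) and Gpt2 (1.12) lie above the cutoff, Asns lies at it (0.995) or past it under the other scalings (1.13, 1.13 and 1.09), and all 8 lie above the median gene (-0.14).

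Over the whole set, 3 of the 8 genes were called higher, Aldh18a1, Psph and Gpt2, and none was called lower, against 2.81% and 7.98% of all tested genes. By the adjusted p alone, 8 of the 8 were higher, against 14.5% of all tested genes, although the deep read counts of most of them let small ratios pass that cutoff. With an assumed coefficient of variation of 0.2 between replicates, which the design cannot measure, none of the 8 passed the same cutoffs in edgeR's exact test, and the adjusted p was 0.0344 for Aldh18a1, 0.0475 for Psph and 0.105 for Gpt2. The ratios ran from 1.46-fold for Got1 to 2.53-fold for Aldh18a1. Their median log2 ratio was 0.89, against -0.14 over all tested genes, and the share of tested genes with a higher ratio ran from 2.35% for Aldh18a1 to 13.4% for Got1.

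The size of the ratio and the amount of added mRNA gave different orders. Summed over the 8 genes, the level was 1906 CPM in the control and 3273 CPM in the HTL library, a gain of 1366 CPM. Psat1 and Phgdh, with log2 ratios of 0.57 and 0.78, together supplied 49.1% of that gain. Asns supplied 17% and Aldh18a1 13.2%, while Psph, the called serine gene, supplied 5.9% and Pycr1 0.868%. Genes that were not called therefore carried most of the added reads.

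The order of FPKM was Psat1, Phgdh, Asns, Got1, Psph, Aldh18a1, Gpt2 and Pycr1 in both libraries. In the control, Asns and Got1 stood at 121.3 and 115.4 FPKM, a ratio of 1.05 whose 95% interval (0.993 to 1.11) includes equal levels. Psph and Aldh18a1 also could not be ordered there, at a ratio of 1.09 (0.985 to 1.2). In the HTL library, Asns stood apart from Got1, at 241.4 against 167.9 FPKM, a ratio of 1.44 (1.37 to 1.51), while Psph and Aldh18a1 again had an interval that includes equal levels (ratio 1.05, 0.985 to 1.13). All other neighbours in the order differed beyond their counting intervals.

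**Figure D3:**
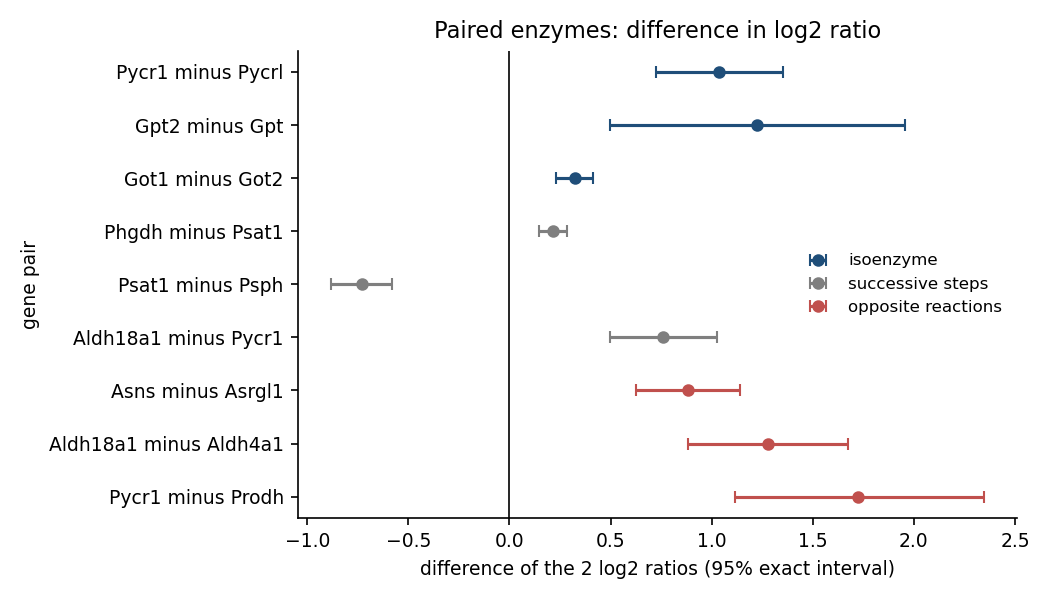
Difference in log2 ratio between the genes of 9 pairs (first gene minus second), with 95% exact intervals, grouped as isoenzymes, successive steps and opposite reactions. All 9 intervals exclude 0, from -0.73 for Psat1 minus Psph to 1.72 for Pycr1 minus Prodh.

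Fisher's exact test, adjusted over the 9 pairs, called a difference in all 9 at a threshold of 0.05. In a normal approximation with an assumed coefficient of variation of 0.2 between replicates, 7 of the 9 lost their call, and those of Aldh18a1 with Aldh4a1 and Pycr1 with Prodh did not. In the 3 isoenzyme pairs given here, the gene named among the 8 had the higher log2 ratio, and in each of the opposite-reaction pairs the synthetic enzyme did. The genes and pairs were chosen with earlier results known, and at most 13.4% of tested genes had a higher ratio than any 1 of the 8. These shared directions were therefore nearly fixed in advance. The successive steps had no common direction, since the later enzyme led in the Psat1 and Psph pair and the earlier one in the Aldh18a1 and Pycr1 pair. The genes lie apart in the genome (NCBIM37), and none shares exon bases with another annotated gene. Aldh18a1 is at chr19:40624747-40662953, Got1 at chr19:43574242-43599095 and Psat1 at chr19:15979168-16021827, all on the minus strand. Psph is at chr5:130271434-130293129 and Asns at chr6:7625169-7643254, both on the minus strand, and Gpt2 is at chr8:88016475-88051459 on the plus strand. Phgdh is at chr3:98117093-98143913 and Pycr1 at chr11:120497026-120505083, both on the minus strand.

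Genes of serine and glycine use, which include the glycine cleavage system, had a median log2 ratio of 0.33 over the 11 tested, against -0.14 over all tested genes. None of the 11 was called in either direction under the exact binomial test, where 2.81% of all tested genes were called higher and 7.98% lower. A count of 0 in a list this short is near that background. By the adjusted p alone, 4 were higher and 2 lower, against 14.5% and 24.1% of all tested genes. Shmt2, the mitochondrial enzyme that splits serine into glycine and a one-carbon unit, had 2133 reads in the control and 2606 in the HTL library (log2 0.47). Gcsh, a carrier protein of the glycine cleavage system, had 1356 and 931 reads (log2 -0.36). The other genes of that system did not share its ratio, with log2 ratios of 0.35 for Gldc, 0.33 for Amt and -0.12 for Dld. Shmt1, the cytosolic form of Shmt2, was named after its values were seen because it differed from it in direction, with 1608 and 831 reads (log2 -0.77).

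Genes of lower glycolysis and the redox shuttles, which lie around the serine branch point, had a median log2 ratio of -0.06, near that of all tested genes. Of these 9 genes, none was called higher and 1 lower, which is near the shares over all tested genes (2.81% and 7.98%). Pgk1, which makes 3-phosphoglycerate, had 6997 and 7578 reads (log2 0.30) and passed the p-value cutoff alone. Pgam1, which draws on the same 3-phosphoglycerate as Phgdh, had 12993 and 11388 reads (log2 -0.005), and Eno1, the enolase after it, had a log2 ratio of -0.06. Both values became positive under the 3 other library scalings that were tried. The gene called lower was Slc25a11, the mitochondrial carrier for oxoglutarate and malate, with 698 and 296 reads (log2 -1.05), a call that was lost under each of the 3 other scalings and with an assumed variation of 0.2.

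Other genes of proline and of the asparagine, aspartate, alanine and glutamate routes had medians near or below 0. Of 8 other proline genes, none was called higher and 1 lower (Prodh), with a median log2 ratio of 0.04. Of 14 other genes of asparagine, aspartate, alanine and glutamate metabolism, 1 was called higher and none lower, with a median of -0.21. Both counts are near the shares over all tested genes. The called gene was Bcat1, the cytosolic aminotransferase of branched-chain amino acids, with 1719 and 3093 reads (log2 1.03), a call that was lost with FPKM plus 1 and with an assumed variation of 0.2. Glul, which makes glutamine, had 1661 and 1801 reads (log2 0.30).

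The integrated stress response list, which holds Atf4, several of its known targets and the kinases upstream of it, had a higher median than the 8 genes. Of 16 tested genes of the integrated stress response core, 9 were called higher and none lower, against 2.81% and 7.98% of all tested genes, and the median log2 ratio was 1.30. Atf4 itself had 3047 reads in the control and 7124 in the HTL library (log2 1.41, 95% interval 1.35 to 1.47), above the largest ratio of the 8 genes. Trib3, a pseudokinase that ATF4 induces, had 173 and 1297 reads (log2 3.09), and Sesn2, a leucine sensor of the mTORC1 pathway, had 447 and 2063 (log2 2.39). Atf5, Cebpb and Ppp1r15a, which are 2 bZIP factors and the phosphatase subunit that reverses eIF2alpha phosphorylation, had log2 ratios of 2.34, 2.31 and 2.25. Nupr1, a small stress-induced chromatin protein, had 15 and 98 reads (log2 2.85). Eif2s1, which encodes eIF2alpha, and the heme-regulated kinase Eif2ak1 were not called, at log2 ratios of -0.23 and -0.36. The ATF4 targets Chac1 (267 and 243 reads, log2 0.05) and Ddit4 (log2 0.55) were not called either, and by the adjusted p alone 10 of the 16 were higher and 3 lower, against 14.5% and 24.1% of all tested genes. With an assumed variation of 0.2 between replicates, 7 genes of this list stayed called, and 0 at 0.4. Phosphorylation and protein levels were not measured in this table.

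Uptake and tRNA charging of amino acids gave a mixed picture around the 8 genes. Of 10 amino acid transporters, 5 were called higher and none lower, with a median log2 ratio of 1.17, beside the same 2.81% and 7.98%. They were Slc7a5 (log2 1.78) and its partner chain Slc3a2 (1.55), the cationic amino acid carriers Slc7a3 (1.64) and Slc7a1 (1.56), and the glycine carrier Slc6a9 (1.52). Slc7a11, the cystine carrier, was the most abundant by reads with 17870 and 12153 and had a log2 ratio of -0.37 (0.0068 relative to genes of similar length), and Slc38a2, a carrier of small neutral amino acids, had -0.35. Of 20 cytosolic aminoacyl-tRNA synthetases, 2 were called higher and none lower, with a median of 0.41, and by the adjusted p alone 14 were higher and 2 lower (14.5% and 24.1% of all tested genes). The called ones were Gars for glycine (log2 1.18) and Nars for asparagine (1.05), while Aars for alanine had 0.94 and Kars for lysine 0.07. Aars passed the cutoff under the 3 other scalings and relative to genes of similar length. All 5 transporter calls and both synthetase calls were lost with an assumed variation of 0.2.

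**Figure D4:**
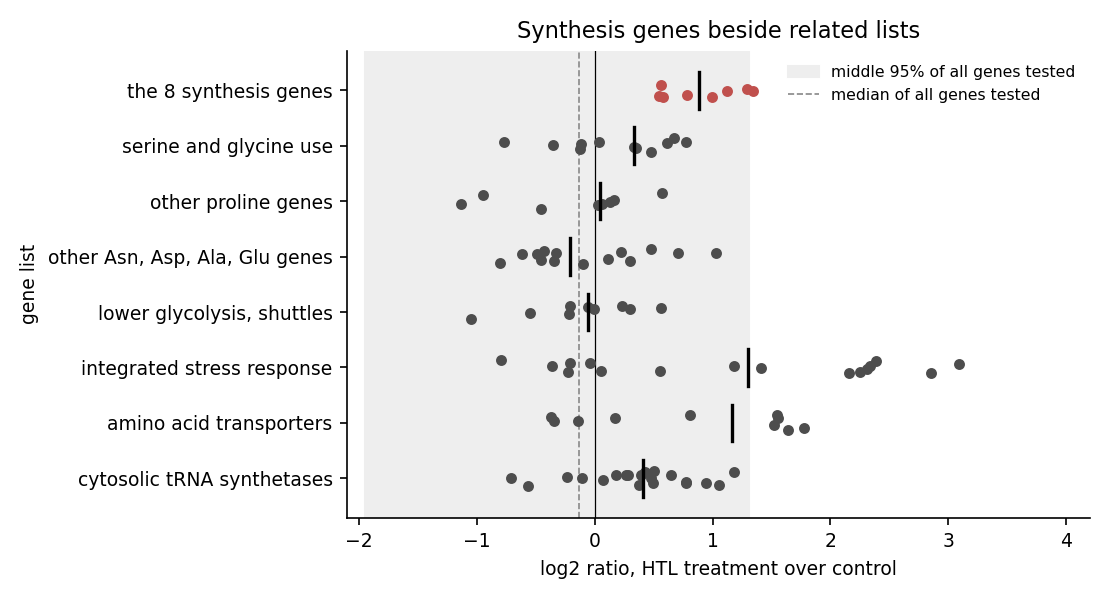
Log2 ratio of HTL to control CPM for every tested gene of the 8 and of 7 related lists, 1 point per gene, with a bar at each list's median, a dashed line at the median of all tested genes and shading over their middle 95%. Vertical spread within a list only separates points. The 8 genes lie between 0.54 and 1.34 with a median of 0.89, below the medians of the stress response (1.30) and transporter (1.17) lists and above those of the other 5 lists.

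The ATF4 core was not found in the promoters of the 3 called genes. Asns, Pycr1 and Got1, whose windows hold TGATGNAA, had log2 ratios of 0.995, 0.58 and 0.54, none of them called. All 3 were higher by the adjusted p alone. Asns also passed the fold cutoff under the 3 other scalings and relative to genes of similar length. Whether the core has a part in these ratios was not tested. In the related lists with a promoter entry, TGATGNAA was found in 3 of 16 stress response genes (Chac1, Nupr1 and Trib3). It was also found in 2 of 6 transporters and in 5 of 13 synthetases, against 4.51% of all genes. The transporters were Slc1a4 and Slc7a11, neither of them called. The synthetases were Aars, Gars, Iars, Tars and Yars, of which only Gars was called. TGATGNAA was found in none of the searched genes of the other lists, 9 of serine and glycine use, 6 of proline, 8 of asparagine and glutamate, and 9 of lower glycolysis and shuttles. In lists this short, that is near the share of all genes. The window ends 50 bases after the start, and introns and distant elements were not searched.

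Transcript length moved with the ratio over the whole table, and the 8 genes were read against it. The median log2 ratio fell from 0.14 in the shortest of 10 equal bins of tested genes to -0.38 in the longest. The 8 transcripts lay in bins 2 to 7 of these, where the medians ran from -0.02 to -0.17. Psph lay in bin 2, and Aldh18a1 and Gpt2 in bin 7, so the 3 called genes were not of 1 length. The part of length in the ratios was not tested beyond a comparison with genes of similar length, in which Asns passed the cutoff at 1.04 and no other gene of the 8 changed its call.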

How the data were processed

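RNA from NE4C cells, 1 control and 1 HTL-treated sample, was extracted with Trizol, prepared with an Illumina TruSeq RNA kit and sequenced on a BGISEQ platform. The authors deposited estimated counts per gene from RSEM, which need not be whole (21.8% and 20.2% of values were not), and FPKM per gene. The deposited table also gives transcript length in bases, used here for the length comparison. The authors' log2 ratios, p-values and FDR values hold their own comparison and were not used. The submitters' processing notes name mm9. The read mapper, software versions and strand setting are not given in the sources used here. Columns of other samples numbered 0.

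Estimated counts were rounded, and totals of 10350665 and 9102076 set the CPM. Testing was limited to the 13442 genes whose reads in the 2 libraries summed to 10 or more, which left out 3361. For each gene, the split of reads (0.5 read added for the log2 ratio) was tested by a two-sided exact binomial test, with Benjamini-Hochberg adjustment over all tested genes, with Clopper-Pearson 95% intervals (Python 3.11.15, SciPy 1.17.1). With 2 unreplicated libraries, intervals and floors cover counting error only. The 9 gene pairs were compared with two-sided Fisher's exact tests, adjusted over the 9. A further planned pair is not reported here. Alternatives were other library scalings (edgeR 4.0.16 and DESeq2 1.42.0 in R 4.3.3), filters, cutoffs, FPKM with a pseudocount of 1, comparison with genes of similar transcript length, and an assumed coefficient of variation between replicates of 0.1, 0.2 or 0.4, entered in edgeR's exact test for genes and, at 0.2, in an unadjusted normal approximation for pairs. The procedure was tested on simulated data.

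Named genes were the 8, their pair partners, and of each related list up to 6 called genes with the largest ratios and the 2 most abundant not called. Atf4, Shmt1, Gldc, Amt, Dld, Pgk1, Chac1 and Ddit4 fall outside this rule and were named after their values were seen. Marker genes and genes with a promoter match are given as values. The genes, lists and pairs were chosen with earlier results of these data known. Gene positions come from GENCODE vM1 on NCBIM37 (mm9), and promoters from RefSeq on GRCm38.p6, with no conversion between them.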

Additional observations from a re-analysis of the deposited data

How the results depend on the processing

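No paired analysis was possible because there was only 1 library on each side, so none could be left out either. The log2 ratios of the 8 genes stayed above 0 under every alternative, from 0.53 for Pycr1 to 1.51 for Aldh18a1 at the extremes. Other scalings shifted all log2 ratios by 0.13 (TMM), 0.14 (median of ratios) and 0.09 (upper quartile). Asns then passed the cutoff at 1.13, 1.13 and 1.09, as it did at 1.04 relative to genes of similar length, and the median of the 8 genes was 1.02, 1.02 and 0.98. Of the called genes, 26.1% were higher as reported and 40.8%, 41.5% and 36.7% under these scalings. With an assumed coefficient of variation of 0.2 or 0.4 in edgeR's exact test, Psph (1.29), Aldh18a1 (1.34) and Gpt2 (1.12) were no longer called, leaving 0 of the 8. At 0.2 the adjusted p was 0.0344 for Aldh18a1, 0.0475 for Psph and 0.105 for Gpt2. By the adjusted p alone 8 were higher, and with a 1.5-fold cutoff 5 were. Over all genes, 241 were called higher and 575 lower with FPKM plus 1, 38 and 82 at a variation of 0.2, 1 and 5 at 0.4, 635 and 1645 by the log2 ratio alone, 1955 and 3240 by the adjusted p alone, and 991 and 2174 with a 1.5-fold cutoff. In the 7 related lists together, 7 genes were higher at 0.2, all of the stress response list, 0 at 0.4 and 41 by the adjusted p alone. The 2 lower genes of these lists became 1 under TMM, 0 under median of ratios, 1 under upper quartile, 1 with FPKM plus 1, 1 at a variation of 0.1, 0 at 0.2, 0 at 0.4, 20 by the adjusted p alone and 7 with a 1.5-fold cutoff. Small negative log2 ratios turned positive for Gpt (0.0296 under TMM, 0.036 under median of ratios), Pgam1 (0.13, 0.13 and 0.0886 under the 3 scalings, 0.0439 against similar length), Eno1 (0.0705, 0.077 and 0.0339) and Nes (0.071, 0.0775 and 0.0344, and 0.22 against similar length), and for Slc7a11 (0.0068 against similar length). Of the 9 pair differences, 7 lost their call in a normal approximation with an assumed variation of 0.2: Pycr1 with Pycrl (1.04), Gpt2 with Gpt (1.22), Got1 with Got2 (0.32), Phgdh with Psat1 (0.21), Psat1 with Psph (-0.73), Aldh18a1 with Pycr1 (0.76) and Asns with Asrgl1 (0.88). The causes were not tested beyond what each setting changes by construction. Adding the Gm6756 reads to Phgdh was chosen after seeing the data. Depth limits the Gpt and Prodh comparisons most, at under 100 reads per library.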
